A study of Mus musculus with 2 samples.

Results

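Scavenger receptors are surface and lysosomal proteins through which macrophages bind modified lipoproteins, lipids, dead-cell debris and matrix fragments and carry them to the lysosome. In the spinal cord they are studied mainly in microglia and macrophages, which clear myelin after demyelination. They share a function and not an ancestor, so that the 6 genes described here belong to unrelated protein families. The 6 are Msr1, Cd36, Lrp1, Stab1, Cd68 and Mrc1, chosen by gene symbol among the 27998 genes of the count tables, and each symbol was found once in both libraries.

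Single cells were sequenced with a droplet method that reads transcript 3′ ends. The mice carried Cx3cr1-CreER::Rosa26-tdTomato (strain C57BL/6J), so that 4-hydroxytamoxifen marks cells expressing Cx3cr1 with tdTomato for good. The injured library came from spinal cord taken 5 days after lysolecithin, a lipid that strips myelin, and the uninjured library from age-matched cord. Both groups had been given 4-hydroxytamoxifen in postnatal week 4 (2 doses, 1 mg), and tdTomato-positive cells were sorted from cords dissected after another 4 weeks. The label marks any cell that expressed Cx3cr1 at the time of injection, so that border macrophages can be among them, and the labels used here give neither the number nor the sex of the animals behind a library. After filtering, the injured library held 577 cells (median 4396 UMIs per cell, where a UMI is a tag that counts 1 captured RNA molecule) and 3095511 UMIs, and the uninjured library 695 cells (median 3003) and 2093084 UMIs.

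With 1 library per condition no difference has a replicate check and no p-value was computed. Intervals are exact 95% intervals of counting error alone. Levels are CPM, a gene's UMIs scaled to the same total in each library. The chemistry tags only the 3′ end of a transcript, so levels were not divided by transcript length, and levels of different genes were not compared. The libraries shared 0 cell barcodes. All 10 homeostatic microglia markers were detected in both, at a summed 4637 CPM in injured and 10983 CPM in uninjured cells. The border macrophage markers were detected for 9 of 10 genes in injured cells (282 CPM, Cd163 at 0) and for 10 of 10 in uninjured cells (85.0 CPM). Dab2 made up 48.0% of the injured sum, with 24 of its 419 injured UMIs in the macrophage-like cluster described below. Of the monocyte markers 7 of 10 were seen in injured cells (193 CPM, most of it Fn1) and 5 of 10 in uninjured cells (13.4 CPM, Chil3 and Hp also at 0), with Ly6c2 and F10 among those at 0 in both libraries. The injured library also held 213 cells with UMIs of Xist alone and 147 with UMIs of Y-linked genes alone, and the uninjured library 6 and 235. The part of these differences in the results below was not tested except where a value without the cells in question is given.

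The 6 genes differed in how they stood between the libraries. Msr1 and Cd36 were many-fold higher in the injured library, Cd68 was moderately higher, Stab1 was slightly lower, and for Lrp1 and Mrc1 the interval of the ratio included 0. At a size of 2-fold or more, 2 of 6 were higher and 0 lower. Over all 9066 genes with at least 20 UMIs, the same size was passed by 7.22% upward, by 11.5% downward and by 18.7% either way. Fewer cells of a kind and less RNA per cell cannot be told apart in these sums. The median log2 ratio, injured over uninjured, was 0.33 over the 6 genes and −0.15 over all measured genes. Intervals lay above 0 for 3 of the 6 genes and below 0 for 1, against 17.1% and 25.8% of all measured genes.

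**Figure D1:**
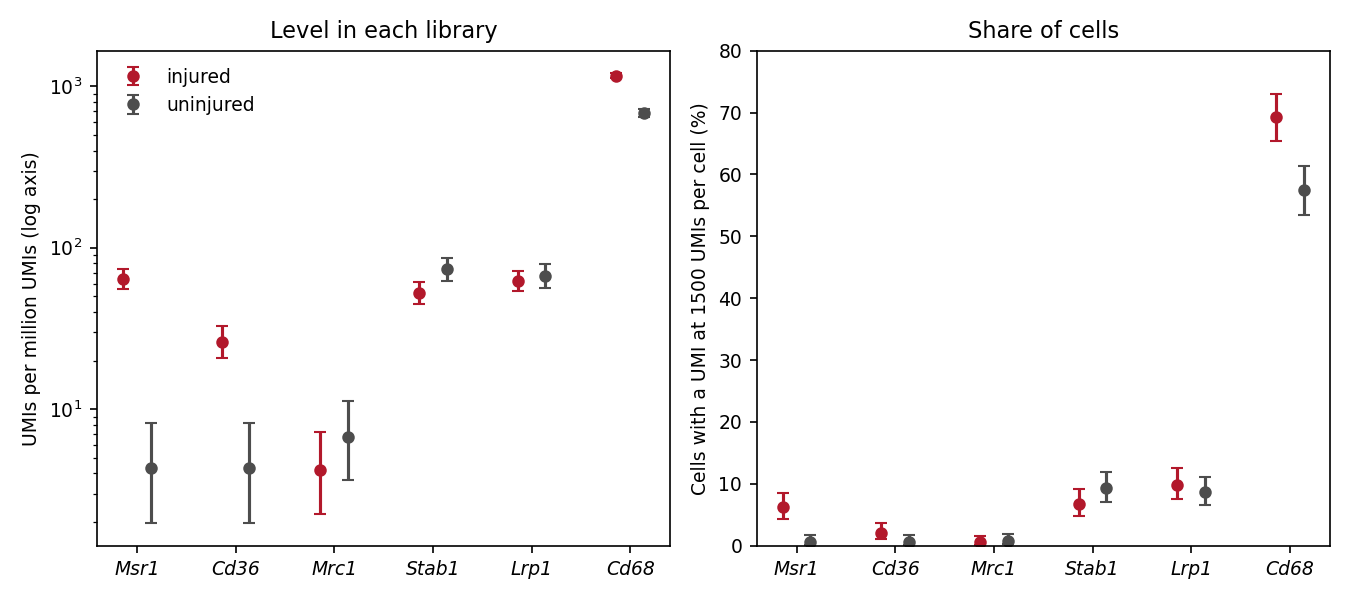
Level (left, CPM on a log axis) and share of cells with a UMI after thinning each cell to 1500 UMIs (right, percent) for the 6 genes in the injured (red) and the uninjured (grey) library; bars are exact 95% counting intervals. Msr1 and Cd36 stand apart between the libraries in level, and Cd68 was seen in 69.3% of injured and 57.5% of uninjured cells.

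Promoter windows from RefSeq (GRCm38.p6) were found for 5 of the 6 genes, all but Msr1. The 250 bases before the annotated start are shown for Cd68 and Cd36, both higher in the injured library, and for Stab1, which was lower, with the gene's own strand read 5′ to 3′. The Cd68 window is chr11:69666171-69666420, that of Cd36 chr5:17835897-17836146, at a start inside the longer annotated gene, and that of Stab1 chr14:31168642-31168891, each on the minus strand. Capitals mark matches on either strand to GAGGAA (the core bound by PU.1), TGANTCA (AP-1) and CACGTG (an E-box of the MITF and TFEB family).
Cd68: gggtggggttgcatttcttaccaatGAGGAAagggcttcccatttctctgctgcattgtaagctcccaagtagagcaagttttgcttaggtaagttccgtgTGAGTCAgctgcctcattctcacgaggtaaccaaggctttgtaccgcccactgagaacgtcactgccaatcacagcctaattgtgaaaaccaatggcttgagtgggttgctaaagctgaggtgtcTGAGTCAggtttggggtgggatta
Cd36: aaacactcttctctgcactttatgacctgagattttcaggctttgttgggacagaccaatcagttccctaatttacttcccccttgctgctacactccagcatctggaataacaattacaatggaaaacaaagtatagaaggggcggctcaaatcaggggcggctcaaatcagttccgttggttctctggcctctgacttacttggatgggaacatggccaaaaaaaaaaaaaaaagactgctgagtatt
Stab1: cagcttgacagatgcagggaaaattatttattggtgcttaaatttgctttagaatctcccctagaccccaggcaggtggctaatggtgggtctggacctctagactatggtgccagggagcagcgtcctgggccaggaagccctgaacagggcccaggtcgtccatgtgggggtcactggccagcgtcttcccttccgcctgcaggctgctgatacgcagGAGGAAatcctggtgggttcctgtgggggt
The Cd68 window held 1 match to GAGGAA and 2 to TGANTCA, at 149 to 143 and 24 to 18 bases before the start. Stab1 held 1 match to GAGGAA, at 30 to 25 bases before the start, the Mrc1 window 3, and those of Cd36 and Lrp1 none of the 3 motifs. Of all 32851 windows of this length 23.3% held GAGGAA, 6.75% TGANTCA and 6.02% CACGTG. A match is a description of the letters and not a binding site.

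Msr1 encodes the class A scavenger receptor SR-A (CD204), a trimeric receptor for modified lipoproteins and other polyanions. It lies on chromosome 8 at 39581685 to 39642673 of GRCm38 (ENSMUSG00000025044, minus strand, protein-coding). Msr1 had 198 UMIs in 98 injured cells, or 64.0 CPM (55.4 to 73.5), against 9 UMIs in 8 uninjured cells, or 4.30 CPM (1.97 to 8.16). The injured level was 14.9-fold higher (log2 3.89, 2.94 to 5.04), which placed it above 99.4% of measured genes. At an equal depth of 1500 UMIs per cell, 35 of 567 injured cells (6.17%, 4.34 to 8.48%) and 4 of 604 uninjured cells (0.662%, 0.18 to 1.69%) had a UMI. Without thinning the shares were 17.0% of injured and 1.15% of uninjured cells. The signal was spread over injured cells: 48 cells had at least 2 UMIs, the most in a cell was 10, and the 10 cells with most held 28.3% of the UMIs.

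Cd36 encodes the class B scavenger receptor that binds oxidised lipoproteins and thrombospondin and takes up long-chain fatty acids. It lies on chromosome 5 at 17781690 to 17888801 (ENSMUSG00000002944, minus strand, protein-coding). Cd36 had 81 UMIs in 51 injured cells, or 26.2 CPM (20.8 to 32.5), against 9 UMIs in 6 uninjured cells, or 4.30 CPM (1.97 to 8.16). The injured level was 6.09-fold higher (log2 2.61, 1.61 to 3.79). It was more concentrated than Msr1: the 10 injured cells with most Cd36 UMIs held 45.7% of them. At equal depth 12 of 567 injured cells (2.12%, 1.10 to 3.67%) and 4 of 604 uninjured cells (0.662%, 0.18 to 1.69%) had a UMI. These intervals overlapped, while they lay apart at 1000 UMIs per cell, with 3.12% (1.86 to 4.89%) of injured and 0.148% (0.0038 to 0.824%) of uninjured cells, and at 2500 UMIs, with 4.47% (2.86 to 6.64%) of injured and 0.433% (0.05 to 1.55%) of uninjured cells. Without thinning the shares were 8.84% of injured and 0.863% of uninjured cells.

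Cd68 encodes macrosialin, a heavily glycosylated protein of late endosomes and lysosomes in the family of the LAMP proteins, widely used as a stain for phagocytic macrophages. It lies on chromosome 11 at 69664213 to 69666153 (ENSMUSG00000018774, minus strand, protein-coding). Cd68 had 3610 UMIs in the injured library, or 1166 CPM (1128 to 1205), against 1430 UMIs in the uninjured library, or 683 CPM (648 to 720). The injured level was 1.71-fold higher (log2 0.77, 0.68 to 0.86). At equal depth a UMI was seen in 69.3% (65.3 to 73.1%) of injured and 57.5% (53.4 to 61.4%) of uninjured cells, and without thinning in 89.8% of injured and 78.7% of uninjured cells. The difference lay mostly in cells with several UMIs: 113 of the 567 injured and 57 of the 604 uninjured thinned cells had 3 to 5 UMIs, and 8 injured and 2 uninjured cells had 6 or more. Cells with exactly 1 UMI made up 29.6% of injured and 30.6% of uninjured cells.

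**Figure D2:**
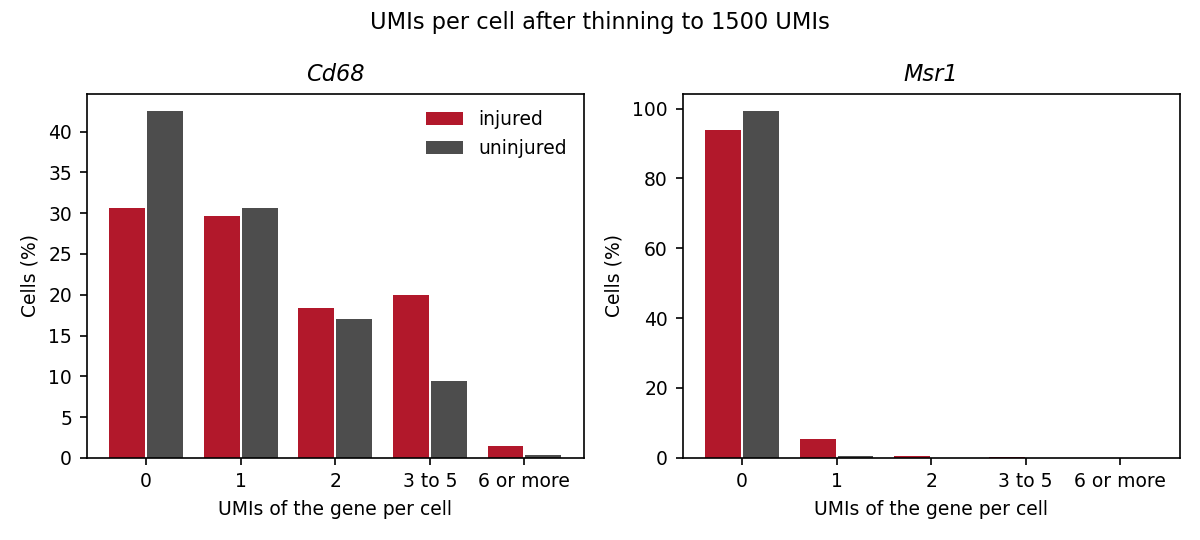
Percent of cells with 0, 1, 2, 3 to 5 and 6 or more UMIs of Cd68 (left) and Msr1 (right) after thinning each cell to 1500 UMIs, in 567 injured (red) and 604 uninjured (grey) cells. For Cd68 the injured bars exceed the uninjured ones most in the class of 3 to 5 UMIs, and for Msr1 93.8% of injured and 99.3% of uninjured cells had 0 UMIs.

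Lrp1 encodes a very large endocytic receptor of the LDL receptor family (CD91), which takes up apolipoprotein E particles, protease and inhibitor complexes and myelin debris. It lies on chromosome 10 at 127538161 to 127621148 (ENSMUSG00000040249, minus strand, protein-coding). Lrp1 stood at 62.0 CPM (53.6 to 71.4; 192 UMIs) in injured and 66.9 CPM (56.3 to 78.9; 140 UMIs) in uninjured cells. The log2 ratio was −0.11 (−0.43 to 0.22), an interval that leaves out a change of 2-fold either way by counting error. Its sign turned under other scalings, to 0.04 with TMM factors and 0.12 with DESeq2 size factors, which shifted every log2 ratio by 0.15 and 0.23, and it was 0.14 in thinned cells. At equal depth 9.88% (7.55 to 12.6%) of injured and 8.61% (6.50 to 11.1%) of uninjured cells had a UMI, and without thinning 26.2% of injured and 17.6% of uninjured cells.

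Stab1 encodes stabilin-1, a receptor of alternatively activated macrophages and sinusoidal endothelium that takes up acetylated lipoprotein and the matrix protein SPARC. It lies on chromosome 14 at 31139013 to 31168641 (ENSMUSG00000042286, minus strand, protein-coding). Stab1 stood at 52.3 CPM (44.6 to 61.0; 162 UMIs) in injured and 73.6 CPM (62.4 to 86.2; 154 UMIs) in uninjured cells, 1.41-fold lower in the injured library (log2 −0.49, −0.82 to −0.16). The interval reached 0 with DESeq2 size factors (log2 −0.26, −0.59 to 0.07) and in thinned cells (−0.36, −0.95 to 0.23), and it also held 0 when the comparison kept to Y-linked cells without Xist (−0.12, −0.75 to 0.51). At equal depth 6.70% (4.79 to 9.08%) of injured and 9.27% (7.08 to 11.9%) of uninjured cells had a UMI, and without thinning 19.8% of injured and 18.1% of uninjured cells. Nt5dc2 overlaps Stab1 on the opposite strand, with 7 injured and 4 uninjured UMIs, and whether the counting used strand is not stated.

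Mrc1 encodes the mannose receptor CD206, which binds glycoproteins and collagens and marks border-associated macrophages more than parenchymal microglia. It lies on chromosome 2 at 14229392 to 14332057 (ENSMUSG00000026712, plus strand, protein-coding). Mrc1 had 13 UMIs in 6 injured cells, or 4.20 CPM (2.24 to 7.18), and 14 UMIs in 9 uninjured cells, or 6.69 CPM (3.66 to 11.2). The log2 ratio of −0.67 had an interval from −1.88 to 0.53, so a difference was not detectable at this depth. At equal depth 0.529% (0.11 to 1.54%) of injured and 0.828% (0.27 to 1.92%) of uninjured cells had a UMI.

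Free RNA can give a UMI in a cell that does not express the gene. The 9 injured cells of cluster 13, led by Fabp7, Pllp and Gap43 and highest of all clusters in the oligodendrocyte precursor markers, served as the comparison (median 3262 UMIs against 4396 in the library). Unthinned, 2 of these 9 had a Cd68 UMI (22.2%, 2.81 to 60.0%) against 89.8% of the library, and 0 of 9 had one of Msr1, Cd36, Stab1 or Mrc1, which allows a share of up to 33.3%. Lrp1 was seen in 4 of 9, a gene that glial cells of many kinds express. Cluster 13 was not free of microglial transcripts. It had 7 of 10 homeostatic microglia markers at a summed 800 CPM and 7 of 10 activated microglia markers at 6257 CPM. Whether these came from free RNA was not tested. The uninjured library had 0 cells in cluster 13, and no such comparison was made there.

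Clusters of cells were built from variable genes without these 6, and they showed where each receptor lay. Cluster 3, with 146 injured and 2 uninjured cells, was led by Lpl, Igf1 and Fn1. Cluster 7, with 57 injured and 32 uninjured cells, was led by Apoc1, Apoc4 and Lgals3. Cluster 11, with 22 injured and 9 uninjured cells, was led by the MHC class II genes H2-Eb1, H2-Aa and H2-Ab1, had Ms4a7 and Pf4 among its top genes, and is called macrophage-like. The uninjured cells lay mainly in clusters 1 and 2 (219 and 184 cells), led by Ddit4 and Emilin1 among named genes.

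Msr1 in the injured library lay in cluster 3 for 130 of 198 UMIs (65.7%), while that cluster held 39.7% of all injured UMIs. Its level was 106 CPM (88.4 to 126) in cluster 3, where 61 of 146 cells had a UMI, 90.0 CPM (56.4 to 136) in cluster 7 and 49.7 CPM (23.8 to 91.4) in cluster 9, which was led by the interferon-induced genes Rsad2 and Ifit3. In cluster 12, led by 2810417H13Rik, Ube2c and Rrm2 and holding 5 dividing cell markers among its top genes, it was 62.0 CPM (33.0 to 106). Clusters 6 and 8 had 0 Msr1 UMIs in 28 and 55 injured cells. Cells of cluster 3 were deeper than others, with a median of 8353 UMIs, and at 1500 UMIs per cell 13.7% (8.57 to 20.4%) of them had an Msr1 UMI against 3.10% (0.85 to 7.75%) of cluster 5, the injured cluster led by Slc7a11, Ccl5 and Plaur. At that depth it was 18.2% (5.19 to 40.3%) in injured cluster 11 and 8.57% (1.80 to 23.1%) in cluster 9. Cluster 7 stood at 5.66% (1.18 to 15.7%) and cluster 12 at 3.57% (0.09 to 18.3%). The intervals of clusters 7, 9, 11 and 12 overlapped that of cluster 3.

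In the uninjured library 6 of 9 Msr1 UMIs and 7 of 9 Cd36 UMIs came from the 9 cells of macrophage-like cluster 11. Clusters 1 and 2 had 1 Msr1 UMI each and 0 of Cd36. Within cluster 11 the interval of the log2 ratio included 0 for both genes, at −0.06 (−1.45 to 1.56) for Msr1 and −0.54 (−1.93 to 0.99) for Cd36. Msr1 was at 169 CPM (100 to 268) in injured and 176 CPM (64.7 to 384) in uninjured cells, and Cd36 at 141 CPM (78.9 to 233) in injured and 206 CPM (82.7 to 424) in uninjured cells. Without cluster 11 the log2 ratios were higher, at 5.37 (3.80 to 7.66) for Msr1, from 180 injured and 3 uninjured UMIs, and 4.51 (2.60 to 7.58) for Cd36, from 66 injured and 2 uninjured UMIs. Injured Cd36 lay in cluster 3 for 36, cluster 11 for 15, cluster 7 for 12 and cluster 5 for 10 of 81 UMIs. These UMIs came from 25 of 146 cells in cluster 3, 6 of 22 in cluster 11, 3 of 57 in cluster 7 and 9 of 131 in cluster 5. Injured clusters 6 and 8 had 0. Cluster 3 held 44.4% of injured Cd36 UMIs, near its 39.7% of all injured UMIs. The Cd36 level there was 29.3 CPM (20.5 to 40.5). It was 49.1 CPM (25.4 to 85.7) in injured cluster 7 and 18.5 CPM (8.85 to 34.0) in injured cluster 5. At equal depth 2.74% (0.75 to 6.87%) of cells in injured cluster 3 had a Cd36 UMI. In injured cluster 11 it was 13.6% (2.91 to 34.9%), and the intervals overlapped.

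Cd68 was seen in all 15 groups of at least 20 cells, a group being a cluster in 1 library. It was 1523 CPM (1455 to 1594) in cluster 3 and 1661 CPM (1503 to 1831) in cluster 7 of the injured library, and 1192 CPM (1048 to 1349) in injured cluster 12. The other 6 injured clusters of at least 20 cells lay between 636 and 949 CPM, beside 428 to 838 CPM in the 6 uninjured ones. Clusters 3 and 7 held 63.1% of injured Cd68 UMIs and 47.6% of all injured UMIs. Without cluster 3 the log2 ratio was 0.46 (0.36 to 0.56). Where a cluster held at least 20 cells of each library, the log2 ratio of Cd68 was −0.04 (−0.43 to 0.33) in cluster 4, 0.47 (0.05 to 0.88) in cluster 6 and 1.96 (1.34 to 2.65) in cluster 7. The median depth in cluster 7 was 3790 UMIs in injured and 1571 in uninjured cells.

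In cluster 3 Lrp1 and Stab1 took a share of UMIs near that of all genes. In the injured library cluster 3 held 42.7% of Lrp1 and 43.2% of Stab1 UMIs, against 39.7% of all. Over the same 15 groups Lrp1 ranged from 27.9 to 142 CPM with a median of 59.6, and Stab1 from 19.5 to 160 CPM with a median of 44.3. Stab1 was at 91.3 and 97.5 CPM in the uninjured clusters 1 and 2. Its highest group was the injured macrophage-like cluster, at 160 CPM (93.1 to 256; 17 UMIs in 22 cells), while the 9 uninjured cells of that cluster had 0. That cluster held 10.5% of injured Stab1 UMIs and 3.44% of all injured UMIs, and injured cluster 9 held 2.47% of Stab1 and 6.50% of all. In the uninjured library clusters 1 and 2 held 40.3% and 33.8% of Stab1 UMIs, against 32.4% and 25.5% of all.

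Mrc1 was nearly restricted to cluster 11, which held 12 of 13 injured and 12 of 14 uninjured UMIs. Its level there was 113 CPM (58.3 to 197) in injured and 352 CPM (182 to 616) in uninjured cells, seen in 5 of 22 injured and 7 of 9 uninjured cells. The log2 ratio within that cluster was −1.64 (−2.93 to −0.36), lower in the injured library, from 12 UMIs in each and with no replicate check. Other genes also stood apart there. Pf4 had 35 UMIs in 10 of 22 injured cells and 66 in 9 of 9 uninjured cells. Fabp4 had 68 injured and 1 uninjured UMIs, and Saa3 3 injured and 208 uninjured. Whether the cells of both libraries in cluster 11 are alike was not tested, which also limits the ratios of Msr1 and Cd36 there. Cluster 3 had 0 Mrc1 UMIs in 146 injured cells.

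**Figure D3:**
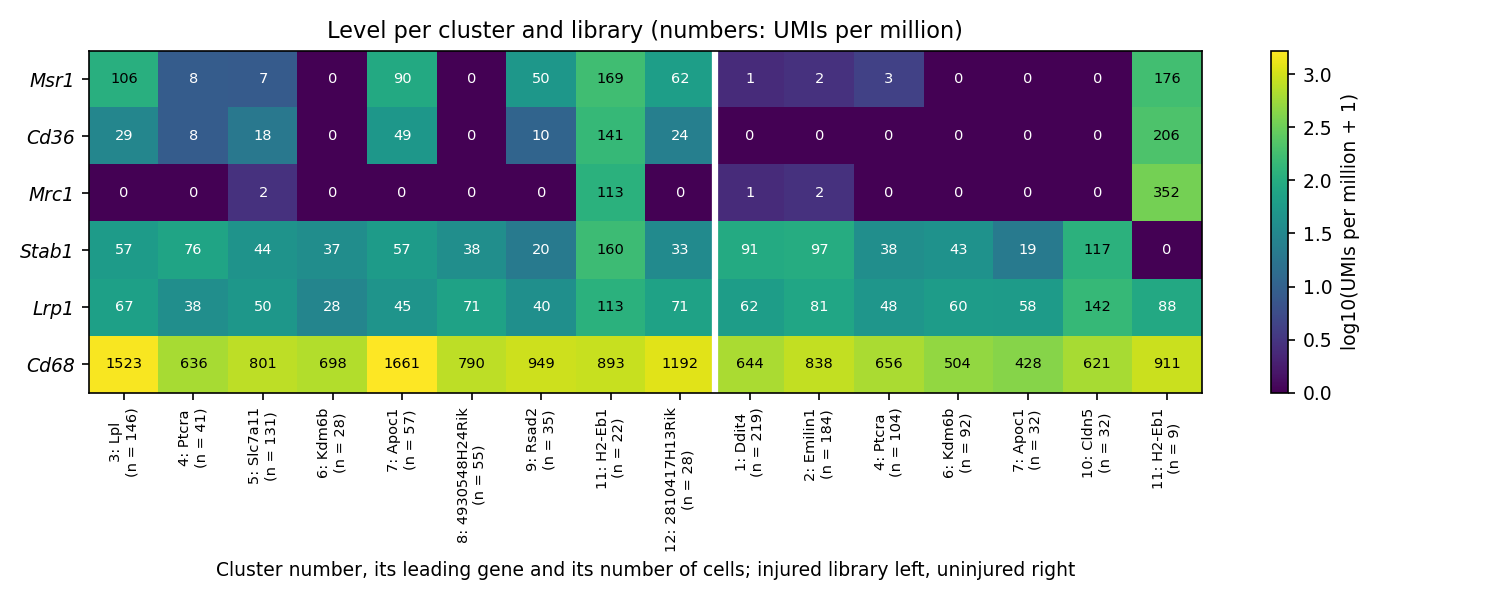
Level (CPM, printed in each field and coloured by log10 of the value plus 1) of the 6 genes by cluster, with injured groups left of the white line and uninjured groups right; groups under 20 cells are left out except the 9 uninjured cells of cluster 11. Mrc1 is near 0 outside cluster 11, Msr1 and Cd36 are also seen in some other injured clusters, and Lrp1, Stab1 and Cd68 are seen in nearly all groups.

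The receptors were also compared within injured cells, at 1500 UMIs per cell. The 35 cells with an Msr1 UMI had Cd68 at 1638 CPM (1310 to 2023), against 936 CPM (870 to 1006) in the 532 cells without. Spp1, which encodes osteopontin, stood at 16210 CPM in cells with and 8209 CPM in cells without an Msr1 UMI. Lpl, the lipoprotein lipase gene, stood at 857 CPM with and 323 CPM without, Plin2, which coats lipid droplets, at 762 CPM with and 325 CPM without, and Fabp5, a fatty acid carrier gene, at 476 CPM with and 160 CPM without. The microglial receptor P2ry12 ran the other way, at 305 CPM (174 to 495) in cells with and 1139 CPM (1066 to 1216) in cells without an Msr1 UMI. The macrophage marker Pf4 stood at 114 CPM (41.9 to 249) with and 33.8 CPM (22.3 to 49.2) without an Msr1 UMI. For Ms4a7 the values were 152 CPM (65.8 to 300) with and 82.7 CPM (64.0 to 105) without. Both pairs of intervals overlapped. The 12 cells with a Cd36 UMI had Cd68 at 1000 CPM (593 to 1580), close to the 979 CPM (913 to 1049) of the rest. They had the macrophage markers Ms4a7 at 833 CPM (466 to 1374) and Pf4 at 444 CPM (192 to 876), against 70.9 CPM of Ms4a7 and 30.0 CPM of Pf4 in the rest. These levels came from few cells, with 15 Ms4a7 UMIs in 4 of the 12 and 8 Pf4 UMIs in 3 of the 12. Lpl stood at 833 CPM (466 to 1374) in cells with and 346 CPM (307 to 388) in cells without a Cd36 UMI, and Plin2 at 667 CPM (344 to 1165) with and 345 CPM (306 to 387) without. P2ry12 was lower here too, at 500 CPM (229 to 949) in cells with and 1100 CPM (1030 to 1174) in cells without a Cd36 UMI. Stab1 was at 278 CPM (90.2 to 648) in cells with and 46.8 CPM (33.3 to 64.0) in cells without a Cd36 UMI, from 5 and 39 UMIs.

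Without thinning, 16 injured cells had UMIs of both Msr1 and Cd36, 82 of Msr1 alone and 35 of Cd36 alone, and 12 of the 16 were in cluster 3. The cells with both were deep, with a median of 10641 UMIs against 3962 in the cells with neither, so depth moves with this overlap and its part was not tested. At equal depth 1 injured cell of 567 had UMIs of both. Cells with no UMI of any of the 6 genes made up 26.3% of injured and 34.8% of uninjured thinned cells, and 9 injured and 4 uninjured cells had UMIs of 3 of the genes.

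Within the injured library Msr1 was at 64.6 CPM (51.2 to 80.5) in cells with Xist alone and 64.8 CPM (48.6 to 84.8) in cells with Y-linked genes alone. Cd36 stood at 14.7 CPM (8.73 to 23.3) in the Xist cells and 30.6 CPM (19.8 to 45.1) in the Y-linked cells, and Cd68 at 1127 CPM (1069 to 1188) in the Xist cells and 1213 CPM (1139 to 1291) in the Y-linked cells. Between the Y-linked cells of both libraries Msr1 had 53 injured and 1 uninjured UMIs and Cd36 25 injured and 1 uninjured UMIs. Cd68 was at 1213 CPM in injured and 670 CPM (615 to 729) in uninjured cells of that kind.

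**Figure D4:**
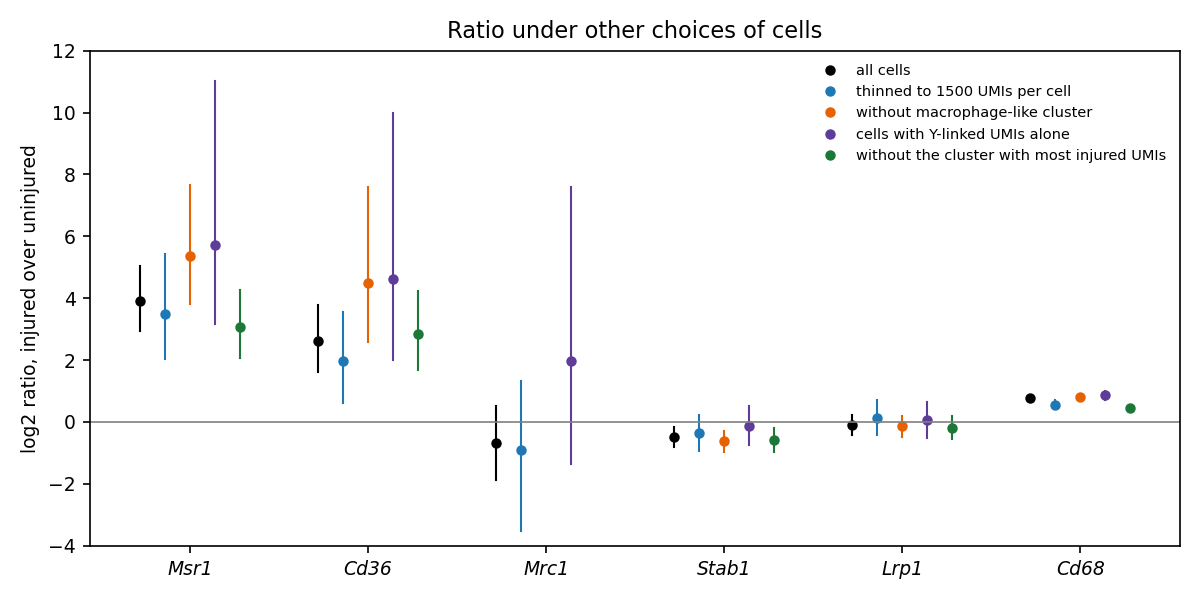
log2 ratio, injured over uninjured, of the 6 genes (points) with exact 95% counting intervals (lines) for all cells, for cells thinned to 1500 UMIs, without macrophage-like cluster 11, for Y-linked cells without Xist, and without the cluster that holds most injured UMIs of the gene. Msr1 and Cd36 lie above 0 in all 5 and Lrp1 lies about 0; for Mrc1, 2 settings leave too few UMIs for a value.

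Other scavenger receptors and relatives formed a list of 39 genes, of which 17 had at least 20 UMIs. Of these 17, 3 passed 2-fold upward and 2 downward, and the median log2 ratio was 0.29. Beside this, 7.22% of all measured genes passed upward and 11.5% downward, with a median of −0.15. Colec12, a collagen-like relative of Msr1 (SR-A4), was at 4.17 (2.57 to 6.48), with 80 injured UMIs, 51 of them in cluster 3, and 3 uninjured UMIs, all in cluster 11. Cd5l, a secreted scavenger protein of macrophages, had 77 injured and 0 uninjured UMIs, with 71.4% of them in 10 cells, and was at least 17.4-fold higher against a floor of 3 counts. Cxcl16, which doubles as the scavenger receptor SR-PSOX, was at 0.88 (0.67 to 1.10), the HDL receptor gene Scarb1 at 0.73 (0.20 to 1.28) and Lamp1, a relative of Cd68, at 0.29 (0.07 to 0.52). The lectin receptor gene Clec4a2 was at −1.05 (−1.37 to −0.74). The class A receptor Marco had 4 injured and 0 uninjured UMIs, and Cd163, the haemoglobin scavenger, 0 injured and 3 uninjured UMIs.

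Genes listed as ligands of these receptors split both ways. Among 27 measured genes of that list 7 passed 2-fold upward and 4 downward, and the median log2 ratio was −0.03. The shares over all measured genes were 7.22% upward and 11.5% downward, with a median of −0.15. Among the highest were Lpl (log2 3.17, 2.89 to 3.46) and Apoe (2.90, 2.87 to 2.93), both bound by Lrp1, and the macrophage growth factor gene Csf1 (2.21, 1.61 to 2.86). Lowest were Tgfb1 (−1.90, −2.30 to −1.50) and Saa3 (−1.55, −1.88 to −1.23), the second with 208 of its 234 uninjured UMIs in the 9 cells of cluster 11. Of the 118 injured Saa3 UMIs 3 were in that cluster, so its place among the lowest rests on the uninjured cells of cluster 11. Sparc, the ligand of stabilin-1, was at −0.67 (−0.72 to −0.62).

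Partners, adaptors and maturation factors had 31 measured genes, of which 6 passed 2-fold upward and 1 downward, with a log2 median of −0.11. All measured genes had a median of −0.15, with 7.22% upward and 11.5% downward. The endocytic adaptor gene Dab2 was at 3.50 (2.92 to 4.15), with 299 of 419 injured UMIs in cluster 3. Ehd1, of endocytic recycling, was at 2.35 (1.65 to 3.12). Lrpap1, the chaperone that escorts LRP1 out of the endoplasmic reticulum, was at 1.15 (0.96 to 1.33), with 1050 injured and 321 uninjured UMIs, beside the value of −0.11 for Lrp1 itself. Tlr2, a signalling partner of CD36, was at 1.10 (0.99 to 1.21). The sorting nexin gene Snx17, which returns LRP1 to the surface, was at −0.83 (−1.02 to −0.63).

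Transcription factors linked to these genes had 25 measured genes, of which 3 passed 2-fold upward and 7 downward, with a log2 median of −0.55. With TMM or DESeq2 factors, which raise every log2 ratio by 0.15 and 0.23, 2 passed downward. The share over all genes at these scalings is not given. Bhlhe40 was at 2.06 (1.56 to 2.59), Ets2 at 1.61 (1.06 to 2.20), the hypoxia factor gene Hif1a at 1.46 (1.13 to 1.81) and the antioxidant regulator gene Nfe2l2 at 0.45 (0.32 to 0.59). Jun was at −2.05 (−2.14 to −1.96) and Maf at −1.11 (−1.32 to −0.90). Pparg, the lipid-sensing receptor that drives Cd36 in macrophages, had 1 UMI in each library. In the list of lipid uptake and handling genes 12 of 23 measured genes passed 2-fold upward and 0 downward, and the log2 median was 1.59. Over all measured genes 7.22% passed upward and 11.5% downward. The list was drawn up with earlier results of these data known. It holds Apoe, Lpl, Fabp5, Ch25h and Gpnmb, which also served as activated microglia markers, so its high count is no independent finding. The highest ratio in the list was that of Gpnmb (7.20, 5.34 to 10.2, from 434 injured and 2 uninjured UMIs), which is not itself an established lipid handling gene. Next came Ch25h (5.46, 4.81 to 6.20), Apoc1 (4.74, 3.84 to 5.81) and Fabp4 (4.02, 2.42 to 6.33), the last with 68 of 72 injured UMIs in cluster 11. The 72 injured Fabp4 UMIs came from 5 cells. For the other 3 genes the 10 injured cells with most held 47.2% of Gpnmb, 22.0% of Ch25h and 52.0% of Apoc1 UMIs. The lowest named were Pnpla2 (−0.61, −1.13 to −0.09) and Npc1 (0.09, −0.38 to 0.57).

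**Figure D5:**
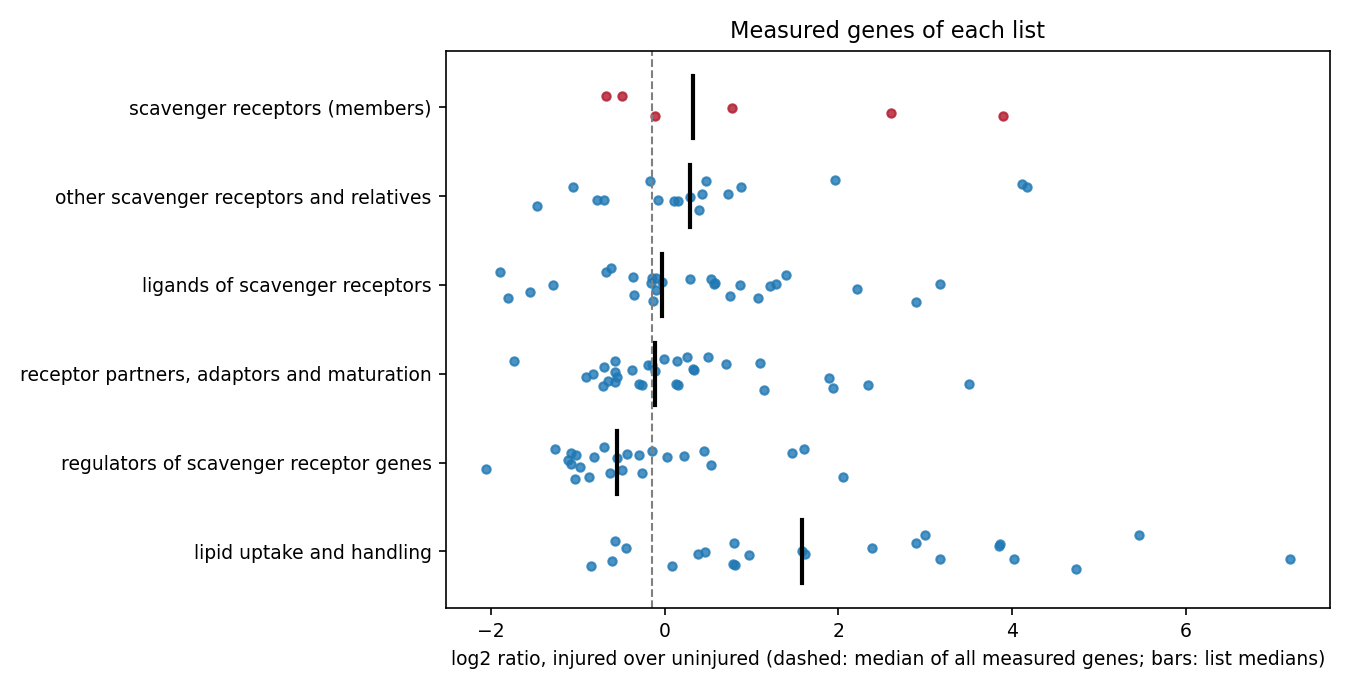
log2 ratio, injured over uninjured, of every gene with at least 20 UMIs over both libraries (points) in the 6 lists, with list medians (black bars) and the median of all measured genes (dashed line, −0.15). The lipid list lies highest, with a median of 1.59, and the 6 receptors (red) run from −0.67 to 3.89.

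Over the same 15 groups of cells, the genes whose level (log2 of CPM plus 10) ran most like that of Cd68 were Ctsz (Pearson r 0.93), Anxa2 (0.91) and Glmp (0.91). For Msr1 they were Lilr4b (0.96), Lgals3 (0.96) and Fabp5 (0.95), and Cd68 itself stood at 0.80. For Lrp1 they were Psmd9 (0.87), Acsl5 (0.84) and Taf6 (0.83), and for Stab1 Cdc42se2 (0.84), Il10rb (0.82) and Slc37a2 (0.82). These are the highest values among all genes ranked, over groups that share 2 libraries and differ in depth. Cd36 and Mrc1, with under 100 UMIs each, were not ranked.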

How the data were processed

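The values are UMI counts per gene and barcode as deposited. The submitters' processing notes name Cell Ranger 2.0.1, STAR, Seurat 2.1.0, GRCm38.p5 and mm10; the role of each, the annotation and any barcode filter are not stated there. Kept barcodes had 200 genes or more and no more than 10% mitochondrial UMIs, which removed 3 of 580 injured and 10 of 705 uninjured barcodes.

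UMIs were summed per library and scaled to CPM. Ratios carry an exact Clopper-Pearson interval, a count of 0 being set to 3 counts per library (0.969 CPM injured, 1.43 CPM uninjured), and cover counting error only. Genes with 20 UMIs or more over both libraries were measured, all 6 receptors among them. Cells were thinned to 1500 UMIs, leaving out 10 injured and 91 uninjured cells. Clusters used 2000 variable genes without the 6 receptors, 20 components, 15 neighbours and Leiden at resolution 1 (scanpy 1.11.5). Scrublet called 1 injured and 18 uninjured doublets, which were kept. Other scalings used edgeR 4.0.16 and DESeq2 1.42.0. The ratio was tested on simulated data. Alternatives covered scaling, thinning depth, UMI minimum, clustering and cells left out.

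Gene positions are from GENCODE M21. The receptors and lists were chosen with earlier results of these data known. From each list the 4 highest and 2 lowest genes having 50 UMIs or more in either library were named. Sparc, Marco, Cd163, Pparg and the genes set beside Msr1 and Cd36 within cells were chosen after their values were seen. Clec7a was not analysed here, and a few other genes that the rule names are not reported here.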

Additional observations from a re-analysis of the deposited data

How the results depend on the processing

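No paired analysis was possible because each group holds 1 library, and none could be left out. Of the alternative log2 ratios of the 6 genes 61 stayed within the counting interval and 13 did not. Without macrophage-like cluster 11 the ratio was 5.37 for Msr1 and 4.51 for Cd36. When the clusters highest in endothelial and oligodendrocyte precursor markers also left, a choice made after seeing the data, it was 5.33 for Msr1 and 4.47 for Cd36. In Y-linked cells without Xist it was 5.70 for Msr1, 4.62 for Cd36, −0.12 for Stab1 and 1.98 for Mrc1 (4 injured and 1 uninjured UMIs). Cd68 was at 0.92 with TMM factors, 1.00 with DESeq2 size factors, which reaches 2-fold, 0.56 in thinned cells, 0.54 as a mean over cells and 0.46 without cluster 3, the last also chosen after seeing the data. Mrc1 gave no value without cluster 11 or without the 10 cells holding most of its UMIs.

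Shares of cells with a UMI changed with depth, each thinning being 1 random draw from the cells deep enough for it. Unthinned they were 17.0% in injured and 1.15% in uninjured cells for Msr1, 8.84% in injured and 0.863% in uninjured cells for Cd36, 26.2% in injured and 17.6% in uninjured cells for Lrp1, 19.8% in injured and 18.1% in uninjured cells for Stab1, and 89.8% in injured and 78.7% in uninjured cells for Cd68. At 2500 UMIs they were 4.47% in injured and 0.433% in uninjured cells for Cd36, 14.2% in injured and 14.3% in uninjured cells for Lrp1, 10.9% in injured and 16.2% in uninjured cells for Stab1, and 86.6% in injured and 80.1% in uninjured cells for Cd68. At 1000 UMIs they were 3.12% in injured and 0.148% in uninjured cells for Cd36, 5.72% in injured and 6.68% in uninjured cells for Lrp1, which turns its order, 3.64% in injured and 7.12% in uninjured cells for Stab1, and 58.8% in injured and 47.8% in uninjured cells for Cd68. Lrp1 was also marginally lower in injured cells at 2500 UMIs. The cause of these turns in order, and of that for Stab1 without thinning, was not tested.

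With a minimum of 100 UMIs 1 of the 6 receptors was at least 2-fold higher, as were 0 other receptors and 4 genes of the ligand list. At that minimum 1 other receptor and 0 partners were lower. With TMM or DESeq2 factors 1 other receptor and 2 regulators were lower, and with no minimum 5 regulators were higher. The share of all genes that passed at these settings is not given. These counts show only how each list moved and cannot be set against a background. The share of injured UMIs in the cluster with most was 73.2% for Msr1, 51.0% for Lrp1 and 59.3% for Cd68 at resolution 0.5, 43.9% for Cd68 and 100% for Mrc1 at resolution 2, and 60.5% for Cd36, 54.9% for Cd68 and 100% for Mrc1 with the receptors kept among the clustering genes.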
